A study of Mus musculus with 12 samples.

Results

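The low-EGFP gate (low) was compared with the dimmer EGFP-positive gate just below it (sub) in cells dissociated from the livers of C57Bl/6 mice that carry the Sox9EGFP transgene. The comparison used 6 of the 12 libraries of the series, 3 from each of these gates, and all genes whose normalised count averaged at least 10 over the 12 libraries, which were 16128 of the 54227 in the table. The genes nearest this limit were Il2ra and Gm26684, both at a mean of 10.01, just inside it, and Ssc4d and Vash1, both at 9.987, just outside it. The other 6 libraries came from EGFP-negative cells (neg) and from the brightest gate (high), 3 each, and served to set the spread between libraries and as levels on either side. Every group, neg included, carried the transgene, shared the strain and followed a 16 h fast, and each library was made from the total RNA of 12000 sorted cells. The age, sex and number of the mice are not given in the sources used here. The labels do not say whether the 3 libraries of a gate came from separate animals, so p-values here measure only the spread between these libraries, which may be technical. The question was which gene programmes were lower or higher in the gate with the next level of EGFP.

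Sox9 is a transcription factor of the bile duct epithelium, whose cells (cholangiocytes) line the ducts of the portal tract and modify bile through ion channels, water channels and a sensory primary cilium. Sinusoidal endothelial cells form the leaky wall between blood and hepatocytes, and hepatic stellate cells lie beneath them, store vitamin A and lay down collagen. Portal fibroblasts and vascular smooth muscle surround the ducts and vessels of the portal tract.

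Depth lay between 9872316 and 15251585 reads in sub and between 13455495 and 14716505 in low, and 9039 (sub 2) to 12687 (low 1) genes were above 0. Many values were all or none: 36.8% of tested genes in sub and 34.6% in low had at most 3 reads in 1 library and at least 100 in another of the same gate. The median standard error of a log2 difference was 2.35 over all tested genes and 0.745 over the 2053 with a mean of at least 1000. Precision was therefore far better for abundant genes. Levels below are normalised counts, the reads divided by 1 factor per library, given for libraries 1, 2 and 3 of a gate in that order. A log2 difference is low minus sub in the mean of log2(normalised count + 1), with its standard error, tested with limma and adjusted over all tested genes, and positions are on GRCm38. A gene said below to have passed, risen, fallen or been called did so in limma unless edgeR or DESeq2, the count tests run on 10 libraries, is named. As a check of the gates, Sox9 held 6653, 4237 and 3707 in the sub libraries and 8838, 10313 and 17140.4 in low, with at most 3 reads in each neg library. Its libraries did not overlap between low and sub, but the log2 difference of 1.30 ± 0.76 did not pass in limma (adjusted p = 0.608).

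More genes were lower than higher in the low gate in limma. There, 120 of the 16128 genes (0.744%) passed an adjusted p of 0.05, of which 99 (0.614%) were lower in low and 21 (0.13%) were higher. Of the falls 29 belonged to a gene list described below, among them 7 collagens, 5 endothelial, 3 sinusoidal and 3 stellate cell genes, while the receptor tyrosine kinase gene Erbb4 and the adhesion gene Alcam were among the rises. The falls were also the larger changes, with a median log2 difference of -9.36 and a range in size from 1.18 to 13.04, against a median of 1.49 and a range from 0.32 to 11.10 for the rises. In 43 of the 99 falls no low library held more than 3 reads, which is treated here as the floor of detection, and a fold against such a group is given as a lower bound. The libraries of the 2 gates did not overlap for any of the 120 genes. Without adjustment 1637 genes (10.2%) had a p under 0.05 in limma. The 10 libraries of the count tests did not include sub 3 or high 2, so there the sub gate was sub 1 and sub 2 alone. EdgeR on them called 271 genes (1.68%), 222 lower and 49 higher. DESeq2 on the same libraries called 1501 (13.5% of the 11119 it gave a value), 651 lower and 850 higher. The shares of genes called by DESeq2 given below are of those 11119. Over all tested genes the median log2 difference was 0, with 7955 higher and 6906 lower in low, and groups that did not overlap were found for 5.99% of genes on the lower side and 5.75% on the higher side. Because these are bulk samples, fewer cells of a type and less RNA per cell cannot be told apart in any of the changes below.

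**Figure D1:**
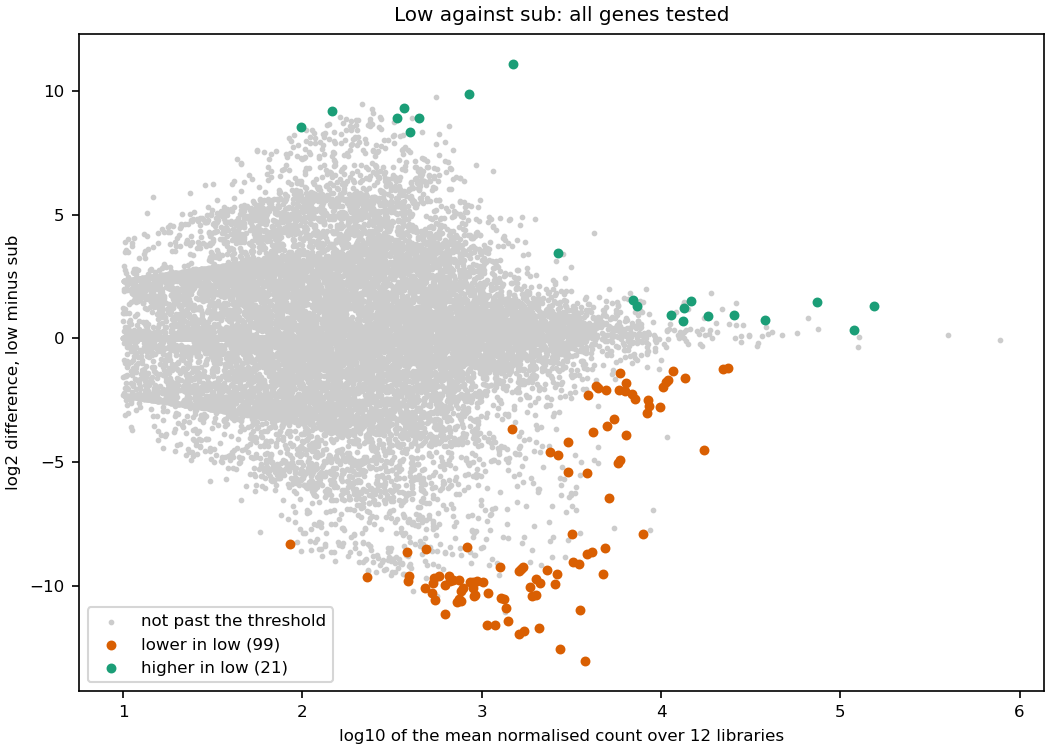
Log2 difference between low and sub (y axis, limma on log2(normalised count + 1)) against the log10 mean normalised count over 12 libraries (x axis), with 1 point for each of the 16128 tested genes. The 99 genes lower in low are orange, the 21 higher are green and genes that did not pass are grey. Most of the lower genes lie below -8, whereas most of the higher genes have differences under 2 and lie toward the right.

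The endothelial identity genes were lower in low as a whole list. All 12 tested members had a negative log2 difference, and 5 of them fell (0.614% of all genes did). The libraries did not overlap for 11 (5.99% of all genes on the lower side). The median log2 difference was -8.45, or -8.13 with members at the floor set to their bound, against 0 over all genes. Cdh5, which encodes the VE-cadherin of endothelial junctions (chr8:104101625-104144511, plus strand), held 3735, 5189 and 4036 in the sub libraries and 8.16, 0 and 0 in low. Low was thus near 0 in every library, and the log2 difference was -11.0 ± 1.92 (SE; limma adjusted p = 0.00985). Pecam1, the platelet endothelial adhesion molecule (chr11:106654217-106750628, minus strand), kept a measurable level: 5059, 9150.1 and 6398 in sub and 668, 442 and 616 in low, a difference of -3.55 ± 0.63 (adjusted p = 0.0114). Each low library stayed well below each sub library for this gene.

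Of the other endothelial genes that fell, Flt1 encodes a VEGF receptor and held 3868, 6439 and 4214 in sub and 284, 0 and 4.11 in low, so that a single low library carried most of the remaining signal (log2 difference -8.70 ± 1.91, limma adjusted p = 0.0397). Erg, an ETS-family transcription factor that maintains endothelial identity, was at 0 in all low libraries, with 1059, 758 and 1259.8 in sub (adjusted p = 0.0382; at least 402-fold lower). Robo4, a guidance receptor of vessels, was likewise at 0 in low and at 2693, 819 and 333 in sub (adjusted p = 0.0397; at least 503-fold lower). The VEGF receptor Kdr did not pass in limma, with 5968, 6798 and 5009 in sub, 223, 0 and 91.2 in low and an adjusted p of 0.0568. EdgeR on the 10 libraries it could use called all 12 members lower (1.38% of all genes), and DESeq2 called 10 (5.85%). In limma the calls of Cdh5 (adjusted p 0.0611), Erg (0.0513) and Robo4 (0.0611) were lost when sub 2 was left out. That of Pecam1 was lost without sub 2, sub 3 or low 2 (adjusted p 0.0528 to 0.0778) and that of Flt1 without any 1 library other than low 1 (adjusted p 0.0507 to 0.152).

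Promoters are shown for 2 of the 3 endothelial genes of this list that hold the motif searched for in it. The letters AGGAAGT, a sequence bound by ETS factors such as Erg, were searched on both strands of the 250 bases before each start in RefSeq (GRCm38.p6). They were present in 7.686% of 32851 promoters and in 4 of the 13 promoters of the 9 endothelial members with an entry, belonging to Egfl7, Eng and Flt1. The CArG box, searched in the same way for the smooth muscle list, was in 1.467% of all promoters and in 1 of 7 members', that of Myl9. Flt1 (chr5:147726012-147726261, minus strand) and Egfl7 (chr2:26580833-26581082, plus strand) are printed 5′ to 3′ with the match in capitals; in Egfl7 the match is on the opposite strand and reads ACTTCCT. Egfl7, which encodes a secreted endothelial protein, held 1933, 1225 and 1723 in sub and 160.3, 0 and 0 in low (log2 difference -8.20 ± 2.16, limma adjusted p = 0.0938) and did not pass in limma. A match is a description of the letters and not a bound site.
Flt1: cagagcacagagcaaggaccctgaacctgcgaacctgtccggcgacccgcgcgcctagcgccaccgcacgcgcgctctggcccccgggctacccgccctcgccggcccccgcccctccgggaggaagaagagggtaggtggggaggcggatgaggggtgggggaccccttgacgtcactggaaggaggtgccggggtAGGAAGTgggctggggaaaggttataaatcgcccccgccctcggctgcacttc
Egfl7: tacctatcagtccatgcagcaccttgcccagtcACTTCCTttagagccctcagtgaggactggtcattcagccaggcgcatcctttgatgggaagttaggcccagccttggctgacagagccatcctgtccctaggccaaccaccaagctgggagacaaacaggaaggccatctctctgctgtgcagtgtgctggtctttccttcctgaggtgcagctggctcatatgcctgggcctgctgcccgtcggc

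Genes that distinguish the sinusoidal endothelium from other vessels went the same way. All 10 tested members were lower in low, with a median log2 difference of -6.69, and 3 fell in limma (0.614% of all genes did). The libraries did not overlap for 7 (5.99% of all genes on the lower side). Stab1, a scavenger receptor of sinusoidal cells (chr14:31139013-31168641, minus strand), held 3364, 3829.7 and 6038 in sub and 203, 44.2 and 11.5 in low (log2 difference -6.46 ± 1.42, limma adjusted p = 0.0397). Gata4, the transcription factor that specifies sinusoidal endothelium and is also expressed in stellate cells, was at 0 in all low libraries, with 1332, 1114 and 1086 in sub (adjusted p = 0.0397; at least 462-fold lower). The mannose receptor gene Mrc1 had 4902, 3210.3 and 3790.3 in sub and 0.742, 0.850 and 424 in low, where low 3 held nearly all of the remainder (log2 difference -8.46 ± 1.93, adjusted p = 0.0475). Stab2, the hyaluronan scavenger receptor, did not pass in limma, at 5013, 7516 and 4188 in sub and 732, 118 and 0 in low (adjusted p = 0.0938) but was lower in edgeR (2.63e-22). EdgeR called 9 of the 10 members lower (1.38% of all genes) and DESeq2 called 6 (5.85%). The Stab1 and Gata4 calls were each lost without sub 1, sub 2, sub 3, low 2 or low 3 (adjusted p 0.0531 to 0.0845 and 0.0535 to 0.0842). That of Mrc1 was lost without any 1 library other than low 3 (adjusted p 0.07 to 0.276).

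In the VEGF and angiopoietin list 1 co-receptor fell. Nrp2, a co-receptor for VEGF-C and semaphorins (chr1:62703285-62818695, plus strand), fell from 2759.9, 4080.5 and 3239.8 in sub to 278, 60.3 and 27.1 in low (log2 difference -5.40 ± 0.93, limma adjusted p = 0.00831), the only limma call among 8 tested (0.614% of all genes fell). EdgeR called Nrp2, its relative Nrp1 and the lymphatic VEGF receptor Flt4 lower (1.38% of all genes), and DESeq2 called Nrp2 lower (5.85%) and the ligand Vegfb higher (7.64%). The DESeq2 log2 difference of Vegfb was 23.8, a size not read as a fold, and edgeR did not call Vegfb (adjusted p = 0.715). The limma call of Nrp2 was lost without sub 2 (adjusted p = 0.0557). The ligand Vegfa was 3205, 4039 and 1948 in sub and 4759, 6106 and 2448 in low, overlapping groups with a difference of 0.50 ± 0.47 (adjusted p = 0.754). Angpt2, a vessel-destabilising ligand, was at 0 in all libraries of both gates except sub 3, at 512. Of the 8 tested members 5 were lower and 3 higher.

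The summed level of each cell type list placed these genes among the gates. The endothelial identity list summed to 88975 to 113649 over the neg libraries and 29632 to 36196 over sub, then 749 to 1536 (low) and 428 to 874 (high). The sinusoidal sums were 67447 to 100474 (neg), 19124 to 20255 (sub), 285 to 1175 (low) and 440.4 to 966 (high). In both lists sub lay between neg and low without overlap with either, and low and high overlapped. In low, 4 of the 12 endothelial and 3 of the 10 sinusoidal markers were at the floor in all libraries, Erg, Emcn, Esam, Robo4, Lyve1, Gpr182 and Gata4. The share of endothelial cells in each sorted gate was not measured, and its part in the falls was not tested.

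**Figure D2:**
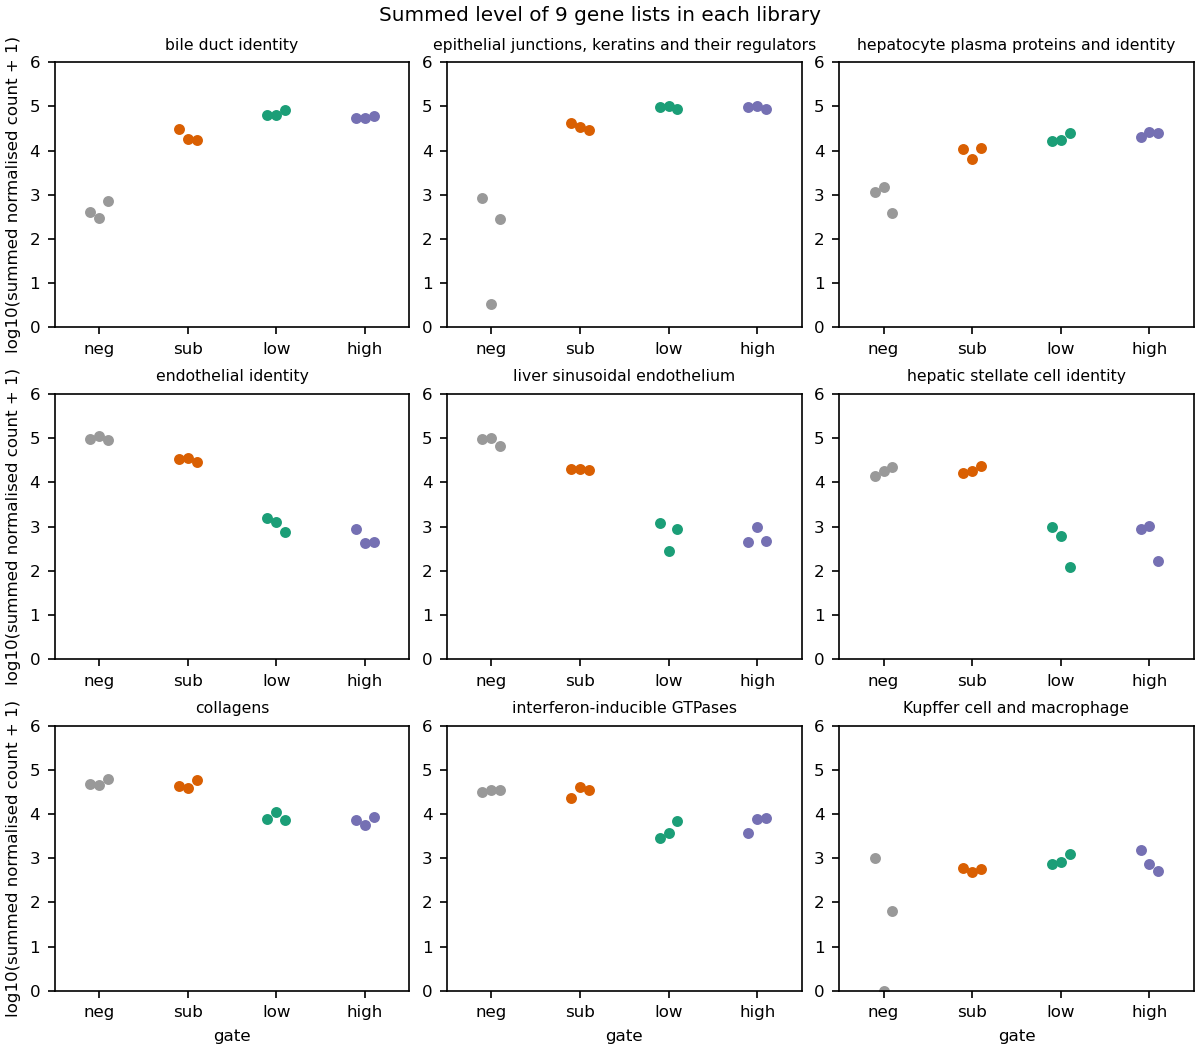
Summed normalised count of 9 gene lists on a log10 scale (y axis) in each of the 12 libraries, grouped by gate (x axis), with 1 point per library. Duct, epithelial and hepatocyte sums are higher in low than in sub in every library, the vessel, stellate, collagen and GTPase sums are lower, and low lies nearer to high than to sub in all of these.

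The hepatic stellate cell list was lower in low in all 11 tested members, with a median log2 difference of -7.32 (-7.35 with bounds). Of these, 3 fell in limma (0.614% of all genes did) and 7 had no overlap (5.99% of all genes on the lower side). Des, the intermediate filament desmin (chr1:75360329-75368579, plus strand), had 1409.8, 1962 and 2537 in sub and 0, 0 and 0.822 in low (limma adjusted p = 0.0282; at least 773-fold lower). The matrix proteoglycan gene Dcn was 3628, 3387 and 6319.9 in sub and was seen in low 1 alone, at 82.4 (log2 difference -9.93 ± 2.17, adjusted p = 0.0397). Reln, which encodes the secreted glycoprotein reelin, held 4288, 8510.1 and 5201 in sub and 781, 594 and 21.4 in low (log2 difference -4.72 ± 1.07, adjusted p = 0.0464). The defining enzyme of vitamin A storage, Lrat, was low even in sub, at 73.0, 0 and 68.8, and at 0 in low (adjusted p = 0.618), and the receptor gene Pdgfrb, at 2602, 1954 and 3487 in sub and 0, 0 and 94.5 in low, did not pass in limma (adjusted p = 0.0667) but was lower in edgeR (0.00761) and DESeq2 (0.0437). EdgeR called 5 members lower (1.38% of all genes) and DESeq2 called 9 (5.85%). The Des call was lost without sub 2 (0.0611), the Dcn call without any 1 library other than low 1 or high 1 (adjusted p 0.0637 to 0.19) and the Reln call without any 1 of the 12 libraries (adjusted p 0.0702 to 0.262).

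The stellate list summed to 13999.9 to 22280.3 (neg), 16238 to 23382 (sub), 118 to 977 (low) and 164 to 1005 (high). Unlike the endothelial sums, the neg and sub ranges overlapped, so that the step in the stellate list lay between sub and low. Of its tested markers 6 were at the floor in all low libraries, namely Lrat, Des, Colec11, Hand2, Hgf and Vipr1. The part of a changed share of stellate cells in these differences was not tested.

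Portal mesenchyme and contractile genes gave fewer calls. In the portal fibroblast list 8 of 9 tested members were lower in low and 1 fell (0.614% of all genes did): Fbln1, a basement membrane and elastic fibre protein, held 0 throughout low and 701, 2222 and 441 in sub (limma adjusted p = 0.0429; at least 439.9-fold lower, lost without sub 2 at 0.0706). Elastin (Eln) was 1539.5, 1878 and 3866 in sub and 68.3, 0 and 0 in low (adjusted p = 0.0665), and Thy1 was at 0 in all libraries of both gates except sub 3. In the smooth muscle list 8 of 10 were lower and Lmod1, an actin filament nucleator of smooth muscle, fell from 723, 1432 and 3164 to 0 in all low libraries, at least 696-fold (adjusted p = 0.0464). This call was lost without any 1 library other than high 1, high 2 or high 3 (adjusted p 0.0544 to 0.134). The smooth muscle actin gene Acta2 was uneven in sub, with 337, 3104 and 272 there and 26.7, 0 and 1.64 in low (adjusted p = 0.189), and Tagln, another contractile gene, had an adjusted p of 0.535. In the portal fibroblast list both count tests called Fbln1 alone. EdgeR called 1.38% of all genes lower, and DESeq2 5.85% of those it gave a value. In the smooth muscle list edgeR called Lmod1 and Myh11 lower. DESeq2 called Lmod1, Acta2 (0.000818) and Actg2 lower and Cnn1 higher (7.64% of genes with a value). Its log2 differences were -27.1 for Actg2 and 23.2 for Cnn1, sizes not read as folds, and edgeR called neither (adjusted p = 0.715 for each). The medians of these lists were -5.02 and -4.93, or -5.80 and -5.55 with bounds.

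The nitric oxide to cyclic GMP pathway couples endothelial cells to the contractile cells around them: nitric oxide from endothelial synthase activates soluble guanylate cyclase in the neighbouring cell. All 7 tested members were lower in low, with a median of -7.41, or -6.80 at the bounds, and 1 fell in limma (0.614% of all genes did). EdgeR called 2 members lower (1.38% of all genes), Pde3a and Nos3 (0.0103), and DESeq2 called 5 (5.85%), Pde3a, Gucy1b1, Prkg1, Nos3 (8.94e-06) and Gucy1a1 (0.00012). Gucy1b1, the haem-binding subunit of the cyclase (chr3:82032006-82074689, minus strand), held 961, 368 and 1403 in sub and 0 in all low and high libraries (limma adjusted p = 0.0363; at least 357-fold lower than sub). It was also at the floor in neg, so that sub was the sole gate in which it was detected above 3 reads, and this call was not made in edgeR (adjusted p = 0.513) but was in DESeq2 (0.00366). Its partner subunit gene Gucy1a1 was present in neg (449.8, 246 and 1321) and in sub (679, 1388 and 1163) and near 0 in low (22.3, 17.8 and 0.822), without passing (adjusted p = 0.156). The endothelial synthase gene Nos3 held 0 throughout low and 631, 157 and 1668 in sub (adjusted p = 0.0899).

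Collagen genes had more limma calls than any other list, whereas in edgeR and DESeq2 the endothelial list had the most. Of 11 tested, 10 were lower in low, all 10 without overlap (5.99% of all genes), and 7 fell in limma (0.614% of all genes did), with a median log2 difference of -7.42. For the fibrillar chains, Col1a1 held 3585, 2554 and 6692 in sub and 103, 0 and 0 in low (log2 difference -9.71 ± 2.14, limma adjusted p = 0.0397). Col1a2, which encodes the partner chain of type I collagen, held 3613, 2918 and 3866 in sub and 190.0, 229 and 62.5 in low (-4.61 ± 0.84, adjusted p = 0.013). Col3a1 held 6526, 4121 and 6977 in sub and 485, 0 and 1.64 in low (-9.04 ± 2.06, adjusted p = 0.0472). Of these, Col1a2 was measured above 0 in every low library, whereas the Col1a1 and Col3a1 signal in low came almost wholly from low 1.

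Col5a1, which regulates fibril diameter (chr2:27886425-28039514, plus strand), held 0 throughout low and 3273, 2226 and 4129 in sub (limma adjusted p = 0.0114; at least 1259-fold lower). Col6a2, a chain of the beaded microfibrils, was 1241, 3307 and 1897 in sub and 2.97, 0 and 0 in low (adjusted p = 0.029). The basement membrane chains Col4a1 and Col4a2 had smaller log2 differences than the fibrillar chains above, a contrast that was not tested. Col4a1 went from 7748, 8498 and 11596 to 1275, 3889 and 1398 (log2 difference -2.26 ± 0.41, adjusted p = 0.0132) and Col4a2, which overlaps it on the opposite strand, from 7067, 5182 and 6799.7 to 2251, 930.4 and 2085 (-1.94 ± 0.42, adjusted p = 0.0382). The exception was Col18a1, the endostatin precursor of basement membranes, at 3805, 3529 and 3376 in sub and 3017, 5815 and 3797 in low (difference 0.19 ± 0.48, adjusted p = 0.989). EdgeR called 8 members lower (1.38% of all genes), without Col4a2 (0.145), and DESeq2 called 4 (5.85%), Col1a2, Col5a1, Col6a2 and Col14a1. Of the limma calls DESeq2 did not call Col3a1 (0.0916), Col4a1 (0.0756) or Col4a2 (0.0753) and gave Col1a1 no adjusted p. In limma Col1a2, Col5a1 and Col6a2 were lost without sub 2 alone (adjusted p 0.0546, 0.0515 and 0.0707). Col4a1 was lost without neg 1, sub 1, sub 2, sub 3, low 1 or low 3 (adjusted p 0.052 to 0.109) and Col4a2 without any 1 library other than neg 1, low 1 or high 3 (adjusted p 0.0505 to 0.111). Col1a1 was lost without any 1 library other than low 1 or high 1 (adjusted p 0.0501 to 0.154) and Col3a1 without any 1 library other than low 1 (adjusted p 0.065 to 0.158). The collagen list summed to 38467 to 60268 in sub and 7417 to 11381 in low beside the stellate sums given above, and the part of stellate cells and fibroblasts in the collagen falls was not tested.

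The secreted matrix proteins encoded by Thbs2 and Fbn1 were among the 12 largest falls of the comparison. Thbs2, a thrombospondin that limits vessel growth, held 2832, 5255 and 4111 in sub and 0 in all low and high libraries (limma adjusted p = 0.00737; at least 1595-fold lower in low than in sub). Fbn1, the fibrillin of elastic microfibrils (chr2:125300594-125507993, minus strand), held 2161, 5316 and 3233 in sub and a single read in low (adjusted p = 0.0114; at least 1400.5-fold lower). Both calls were kept in all 12 fits that left out a library. Sparcl1, a SPARC-like protein, went from 3296, 1633 and 3577 to 9.65, 0 and 4.93 (log2 difference -9.39 ± 2.07, adjusted p = 0.0397) and lost its call without any 1 library other than high 2 or high 3 (adjusted p 0.0507 to 0.14). Thbs1, another thrombospondin, held 8376, 4548 and 5119 in sub and 7937, 8878 and 4178 in low, with a difference of 0.20 ± 0.39 (adjusted p = 0.931). EdgeR called Thbs2 and Sparcl1 lower in this list (1.38% of all genes), and DESeq2 called these and Tnc (5.85%). Of the 9 matricellular genes tested 7 were lower, 2 of which fell in limma (0.614% of all genes did), and 2 higher, with a median of -6.01, and the contrast between Thbs1 and Thbs2 was not itself tested.

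In the insulin-like growth factor list the calls were binding proteins, which carry the growth factors outside the cell. Igfbp3 (chr11:7206086-7213923, minus strand) held 5875, 6497 and 10796 in sub and 1 read in all of low (limma adjusted p = 0.00458; at least 3029.9-fold lower), and the call was kept in all 12 fits that left out a library. Igfbp4 went from 5851, 7164 and 8129 to 560.3, 664 and 9.86, with low 3 far below the other low libraries (log2 difference -5.45 ± 1.14, adjusted p = 0.0325), a call lost without any 1 library other than low 2 or low 3 (adjusted p 0.0599 to 0.207). These 2 calls were made in limma, where 0.614% of all genes fell. EdgeR called Igfbp3, Igfbp4 and Igfbp5 lower (1.38% of all genes) and DESeq2 called Igfbp3, Igfbp4 and Igfbp6 (5.85%). The DESeq2 log2 difference of Igfbp6 was -24.9, a size not read as a fold, and its edgeR adjusted p was 0.16. Igfbp7 did not pass in any of these tests, at 646, 2410.0 and 1978 in sub and 425, 868 and 0 in low (adjusted p = 0.367). The receptor gene Igf1r was 1873, 1400.2 and 1101 in sub and 1906, 2026 and 2644 in low (difference 0.61 ± 0.54, adjusted p = 0.737). Among 8 tested members 6 were lower and 2 higher.

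**Figure D3:**
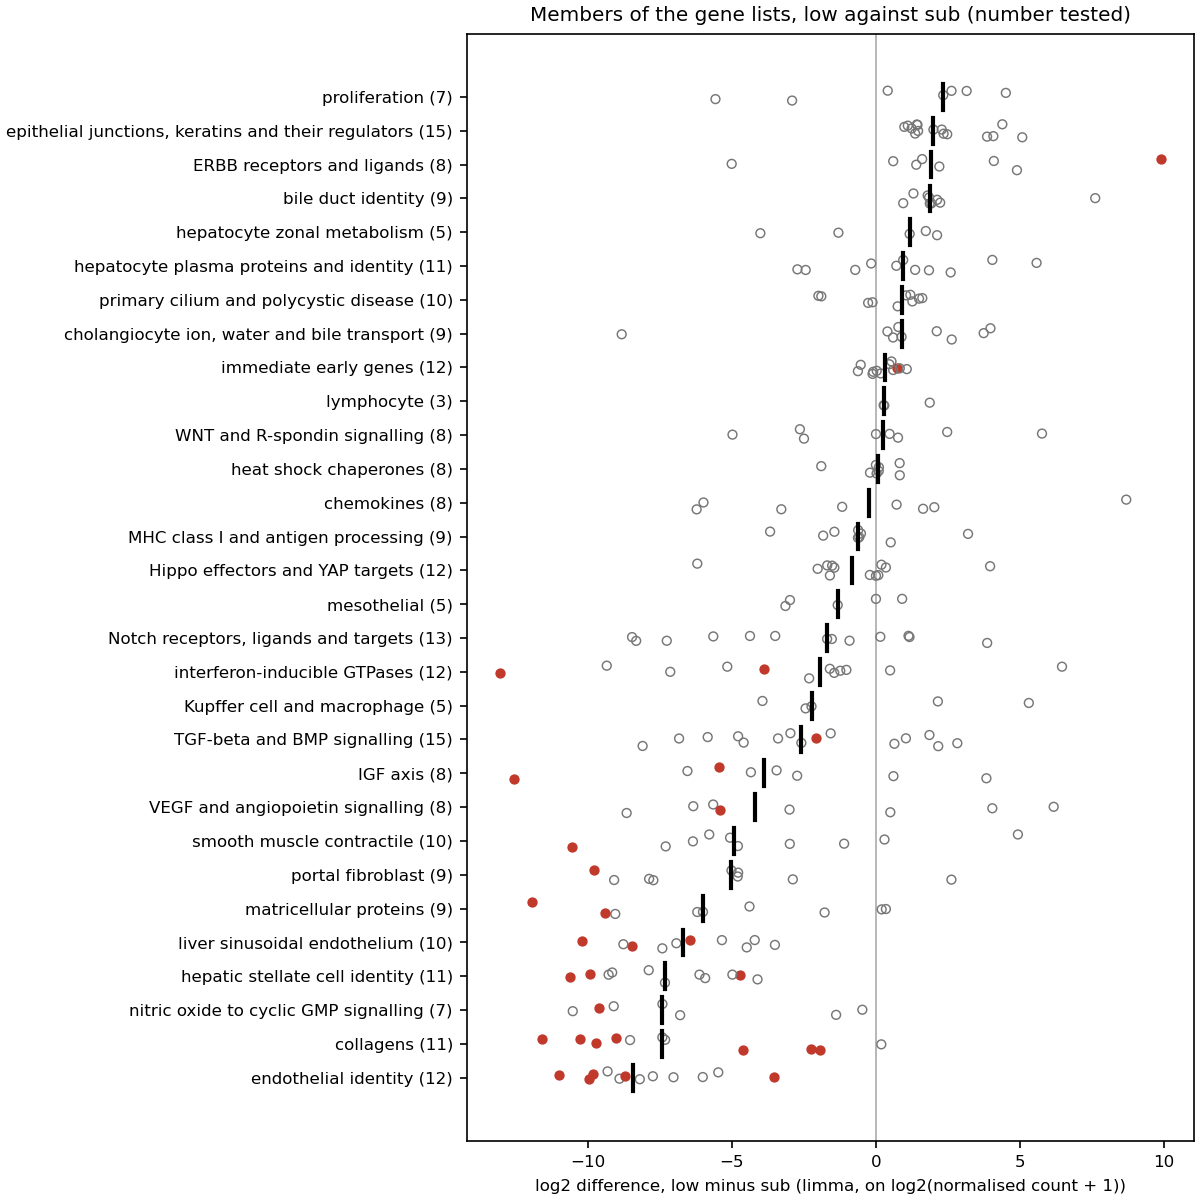
Log2 difference between low and sub (x axis) for each tested member of 30 gene lists (y axis, with the number tested), ordered by list median. Filled red points passed the adjusted threshold, open points did not and black bars are list medians. Endothelial, collagen, cyclic GMP, stellate and sinusoidal lists lie farthest to the left, and the proliferation, epithelial, ERBB and duct lists lie on the right with 1 red point, Erbb4.

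Of the 12 largest falls, those not yet described, apart from Gvin1, which is given below, were as follows. Plvap, the diaphragm protein of endothelial fenestrae (chr8:71497765-71511752, minus strand), held 2473, 3603 and 5205 in sub and 0 in low (limma adjusted p = 0.00729; at least 1475-fold lower). Ednrb, an endothelin receptor (chr14:103814625-103844402, minus strand), held 3548, 2065 and 4071 in sub and 0 in low and high (adjusted p = 0.0138; at least 1266-fold lower). Bcl6b, a transcriptional repressor of endothelial cells (chr11:70224128-70229798, minus strand), held 2912, 1123 and 1313 in sub and 0 in low and high (adjusted p = 0.0275; at least 699-fold lower). These calls stood in every fit that left out a library. Mmrn2, an endothelial matrix protein (chr14:34375465-34404287, plus strand), held 4772, 3307 and 2290.2 in sub and 0 in low, with 466 in high 3 (adjusted p = 0.0194; at least 1356-fold lower). Clec14a, an endothelial lectin (chr12:58264720-58269290, minus strand), held 1580.0, 2494 and 1799 in sub and 0 in low and high (adjusted p = 0.0256; at least 768-fold). The natriuretic peptide clearance receptor gene Npr3 (chr15:11839896-11907287, minus strand) held 2817, 1998 and 1984 in sub, at 0 in low and high, and at 0, 85.6 and 592 in neg (adjusted p = 0.0478; at least 889-fold lower in low). The Clec14a call was lost without sub 2 (0.0557), the Mmrn2 call without any 1 of the sub or low libraries (0.0538 to 0.0858) and the Npr3 call without any 1 library other than neg 1 or neg 3 (adjusted p 0.0607 to 0.115).

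**Figure D4:**
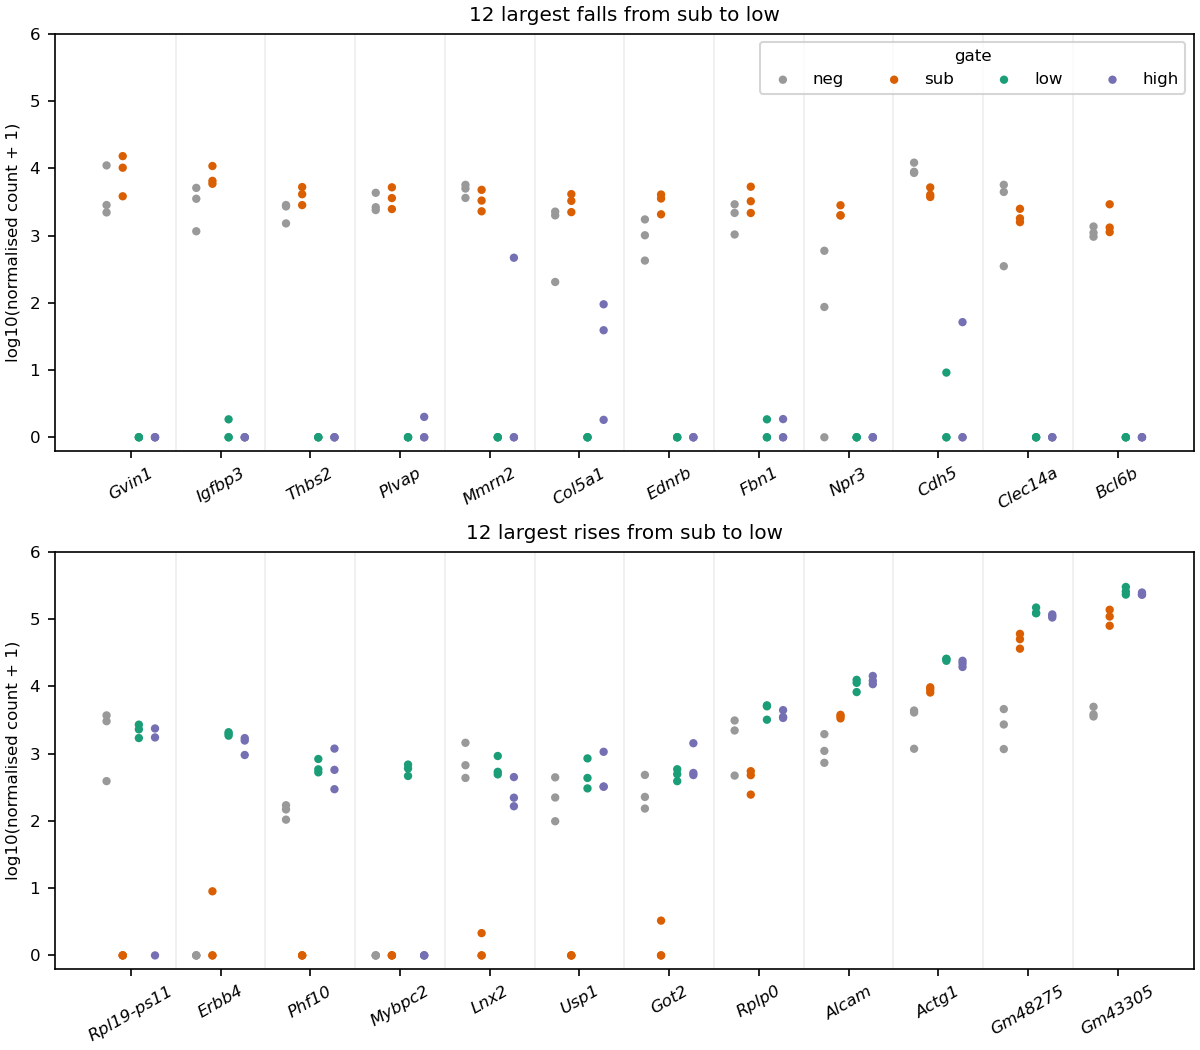
log10(normalised count + 1) (y axis) of the 12 largest falls (upper panel) and 12 largest rises (lower panel) from sub to low, with 1 point per library and the gates neg, sub, low and high side by side within each gene. Among the falls every sub library lies high and every low library at or near 0, and among the rises the last 5 genes are present in every gate and differ by less.

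Interferon-inducible GTPases, which act against pathogens inside cells, contributed the single largest fall. Gvin1 (chr7:106156556-106215326, minus strand) held 3830.0, 15148 and 10190.0 in sub and 0 in all low and high libraries, at least 3814-fold lower in low (log2 difference -13.04 ± 1.94, limma adjusted p = 0.00299). Its near-identical copy Gm4070 can share its reads, and the summed count of both was 13254 ± 1705 in sub and 62.7 ± 20.7 in low. Iigp1 stayed measurable at 533, 432 and 1173 in low against 8363, 9110.1 and 11713 in sub (log2 difference -3.90 ± 0.51, adjusted p = 0.00104). Both calls were kept in all fits that left out a library. Of 12 tested members 10 were lower, 6 of them without overlap (5.99% of all genes), with a median of -1.96. Limma and edgeR called 2 lower (0.614% and 1.38% of all genes), and DESeq2 called these and Gbp5 and Tgtp2 (5.85%). Igtp was among the 2 higher ones, at 0, 601 and 0 in sub and 259, 1511 and 1040.5 in low (adjusted p = 0.357). The list of MHC class I antigen presentation had no calls among 9 genes in limma, edgeR or DESeq2, 7 of them lower with a median of -0.62, with B2m at 3302, 4123 and 2032 in sub and 1988, 462 and 664 in low (adjusted p = 0.236) and H2-K1 at 4491, 4440.0 and 7673 and 4819.5, 2106 and 4100.4 (adjusted p = 0.608). Chemokines gave no calls among 8 in limma or edgeR, and 4 were higher and 4 lower. DESeq2 called the neutrophil attractant Cxcl2 higher (adjusted p = 0.001), as it did 7.64% of genes with a value. Cxcl12, the stromal ligand of CXCR4, was 1666, 4608 and 2938 in sub and 114, 469.9 and 0 in low (adjusted p = 0.15), and Cxcl14 was at 0 in both gates.

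Bmpr2, the type 2 receptor for bone morphogenetic proteins (chr1:59763400-59879014, plus strand), fell from 5593, 8447 and 7187 in sub to 1353, 1103 and 3031 in low (log2 difference -2.08 ± 0.45, limma adjusted p = 0.0397), a call lost without any 1 library other than low 3 or high 3 (adjusted p 0.0823 to 0.204). It was the only limma call among 15 TGF-beta and BMP genes (0.614% of all genes fell), 10 of which were lower, with a median of -2.59. EdgeR called 5 of them lower (1.38% of all genes), Bmpr2 (0.0471), Tgfb1, Tgfbr2, Tgfbr3 and Ltbp4, whereas DESeq2 called Tgfbr3 lower (0.00119) and not Bmpr2 (0.0958). That is 1 of 15 in DESeq2, where 5.85% of genes with a value were called lower. The ligand Tgfb2 was 739, 105 and 1639.8 in sub and 644, 949 and 796 in low (adjusted p = 0.885), and the ligand Bmp2 was 1192, 12.6 and 626 and 316, 829 and 335 (adjusted p = 0.927). For Notch, which specifies duct cells and arterial endothelium, 9 of 13 were lower and none passed in limma. EdgeR (0.00786) and DESeq2 (0.0415) both called the ligand Dll4 lower. They called 1.38% of all genes and 5.85% of those with a value lower. The receptor Notch1 was 3595, 2795 and 4263 in sub and 828, 3848 and 1994 in low, and Notch2, the receptor needed for duct formation, was 2346, 2862 and 1298 and 4283, 4427 and 4820.4, with log2 differences of -0.92 ± 0.55 and 1.13 ± 1.40 (adjusted p = 0.631 and 0.81). These differences had opposite signs, and their contrast was not tested.

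Hippo pathway effectors sense cell density and shape and act through YAP and TAZ. Of 12 tested 7 were lower and 5 higher, and none passed in limma, edgeR or DESeq2. Yap1 was 2757, 1722 and 2384 in sub and 1146, 2324 and 209.6 in low (limma adjusted p = 0.535) and Wwtr1, which encodes TAZ, was 1719, 784 and 1325 and 706, 1075 and 2354 (adjusted p = 1). The WNT list had no call among 8 tested genes in limma or edgeR. DESeq2 called Lgr4 higher (0.000522) and Wnt9b lower (0.0148), against 7.64% higher and 5.85% lower among genes with a value. Among the 8 WNT genes the limma log2 difference was above 0 for 4 and below 0 for 3, with a median of 0.24. The sinusoidal ligand Wnt2 was at 0 in all libraries of both gates while Rspo3 was above 0 in sub 3 alone, at 179.5. Both ligands were present in neg, at 389.7, 404 and 39.6 for Wnt2 and 3063, 4053 and 7613 for Rspo3.

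Rises were fewer. For 7 of the 21 sub was at the floor, and most of the others were abundant genes with differences of under 2 on the log2 scale. Erbb4, a receptor tyrosine kinase for neuregulins (chr1:68032186-69108059, minus strand), was 0, 0 and 7.98 in sub, 1973, 2081 and 1849 in low and 954, 1566 and 1702 in high, and at 0 in neg. The low libraries lay within a narrow range, and the log2 difference was 9.89 ± 2.12 (limma adjusted p = 0.0382, lost without low 2 at 0.0515). Alcam, an adhesion molecule of epithelial and activated immune cells (chr16:52248996-52454074, minus strand), rose from 3599, 3775 and 3342 to 12509, 11288 and 8230.3 (log2 difference 1.56 ± 0.35, adjusted p = 0.0442). The cytoplasmic actin gene Actg1 rose from 9694, 8981 and 8105 to 25473, 24010.2 and 25752 (1.49 ± 0.33, adjusted p = 0.0397). The libraries of the gates did not overlap for either gene, which the rule for naming the largest rises required. The Alcam call was lost without any 1 library other than neg 1 or neg 3 (limma adjusted p 0.0769 to 0.158). The Actg1 call was lost without any 1 library other than neg 3 (adjusted p 0.122 to 0.295). Alcam was called by neither edgeR (0.0741) nor DESeq2 (0.138). EdgeR called Actg1, but DESeq2 (0.225) and limma under quantile normalisation (0.057) did not.

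Among the rises from the floor, Phf10, a subunit of a chromatin remodelling complex (chr17:14945009-14961273, minus strand), held 0 throughout sub and 583, 832 and 526 in low (limma adjusted p = 0.0275; at least 188-fold higher). Usp1, a deubiquitinase of DNA repair (chr4:98923810-98935543, plus strand), held 0 throughout sub and 849, 303 and 434 in low (adjusted p = 0.0382; at least 154-fold higher). Lnx2, a ubiquitin ligase (chr5:147016655-147076586, minus strand), was 0, 1.14 and 0 in sub and 491, 922 and 536 in low (adjusted p = 0.0251; at least 189-fold higher). All of these were present in neg and at the floor of detection in sub. Whether sub cells lacked these transcripts or their reads were missed was not tested. The mitochondrial aspartate aminotransferase gene Got2 (chr8:95864134-95888547, minus strand) followed the same order, with 482, 226 and 152 in neg, 0, 2.29 and 0 in sub and 389, 585 and 494 in low (adjusted p = 0.0382; at least 142-fold higher than sub). Mybpc2, a myosin-binding protein of fast muscle (chr7:44501699-44524656, minus strand), was at 600.4, 465 and 687 in low and at 0 in all 9 libraries of the other gates (adjusted p = 0.0382; at least 170.1-fold higher than sub). The calls of these 5 genes were kept when any library was left out, but none was made by edgeR on 10 libraries, where the adjusted p ran from 0.118 for Lnx2 to 0.652 for Mybpc2. DESeq2 on the same libraries called all 5, with an adjusted p from 3.68e-09 for Phf10 to 0.00162 for Mybpc2. Phf10 overlaps 1600012H06Rik, Got2 overlaps Gm45760 and Mybpc2 overlaps Gm44646 on the opposite strand, and whether the counting used strand is not given in the sources used here.

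Ribosomal protein calls could not be assigned to 1 copy. Rpl19-ps11, a processed pseudogene (chr8:19492936-19493526, plus strand), held 0 throughout sub and 2296, 2698 and 1705 in low (limma adjusted p = 0.0363), a call lost without any 1 library other than high 2 (adjusted p 0.0586 to 0.158). Its transcript is 99.8% identical to that of Rpl19, and the sum of both was 3783 ± 2273 in sub and 2595 ± 165 in low, within the spread of the sub libraries. Rplp0, an acidic protein of the large subunit, rose from 478, 245 and 548 to 3193, 5055 and 5226 (log2 difference 3.45 ± 0.68, adjusted p = 0.0243), lost without any 1 library other than neg 1, neg 2, neg 3 or high 3 (adjusted p 0.0539 to 0.102). Its near copy Gm8730 averaged 3689 in sub and 736 in low, and the sum of both was 4113 ± 1757 and 5228 ± 2035. Once summed with their copies, neither difference exceeded the spread between libraries.

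Abundant rises included the unnamed gene models Gm43305 (chr14:54292443-54297456, minus strand) and Gm48275 (chr10:50425044-50425330, minus strand), annotated as a processed transcript and a long noncoding RNA, which share 287 bases at 99% identity. These bases are the full length of Gm48275, so its reads can be shared with Gm43305 and the 2 rises are not separate. The summed count of both was 157982 ± 41046.5 in sub and 394647 ± 49378 in low (SD, n = 3). Gm43305 held 137761, 109330.0 and 79717 in sub and 257001, 300809 and 231677 in low (log2 difference 1.30 ± 0.14, limma adjusted p = 0.000145), a call kept in all fits that left out a library. Gm48275 held 60376, 50381 and 36382 in sub and 123542, 148733 and 122178 in low (1.45 ± 0.29, adjusted p = 0.0282), a call lost without any 1 library other than neg 1 or neg 3 (adjusted p 0.147 to 0.332). Their levels followed the order of the gates from neg to low: Gm43305 took 0.0387 ± 0.00669% of all summed values (neg), 0.973 ± 0.250% (sub), 2.34 ± 0.300% (low) and 2.15 ± 0.0996% (high; SD, n = 3). Both calls were lost under quantile normalisation (adjusted p = 0.0598 for Gm43305 and 0.0684 for Gm48275) and in DESeq2 on 10 libraries (0.2 and 0.323), and edgeR called both. Of the genes it gave a value, DESeq2 called 7.64% higher.

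Duct genes were higher in low without any passing in limma. In the bile duct identity list all 9 tested members were higher in low, 8 without overlap (5.75% of all genes), with a median log2 difference of 1.87, and none was called in limma or DESeq2; edgeR called Spp1 higher (0.304% of all genes). Onecut1, a transcription factor of duct and hepatocyte development, was seen in sub 1 alone within sub, at 194, and at 1174, 1170.0 and 1058 in low (log2 difference 7.61 ± 2.34, limma adjusted p = 0.169). The list summed to 303 to 709 (neg), 17027 to 30431 (sub), 64002 to 85007 (low) and 55033 to 61595 (high), so the sub libraries already lay far above neg.

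Genes of epithelial junctions and keratins were higher in all 15 tested members, 7 without overlap (5.75% of all genes), with a median of 2.0 and no limma call. E-cadherin (Cdh1) was 7884, 2118 and 3635 in sub and 16645, 17484 and 13224 in low (log2 difference 2.0 ± 0.71, limma adjusted p = 0.274), and Krt8, a keratin of simple epithelia, was 16648, 15117 and 15713 and 45634, 44695 and 37197 (1.42 ± 1.08, adjusted p = 0.699). Krt8 was 0.691, 0 and 133 in neg, and the spread of all gates enters the limma standard error. The low and sub groups of both genes did not overlap, and edgeR on 10 libraries called Cdh1, Krt8 and Krt18 higher (0.304% of all genes), with an adjusted p of 4.84e-07 for Krt8, while DESeq2 called Grhl2 higher (7.64%). In limma, Krt8 passed in the fit without neg 3 (0.0274). The tight junction genes Cldn3 and Cldn7 were 663, 137 and 396 and 349, 0 and 54.9 in sub and 1319, 2788 and 1696 and 1279, 993 and 593 in low (adjusted p = 0.654 and 0.484). Of the functional duct genes, the transport list had 8 of 9 higher and the cilium list 6 of 10, with medians of 0.89 and 0.90 and no limma call. The chloride channel Cftr was 595, 349 and 0 in sub and 196, 454 and 551 in low (adjusted p = 0.751), the bicarbonate exchanger Slc4a2 1549, 376 and 19.9 and 912, 1109 and 968 (adjusted p = 0.693).

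Pkhd1, which encodes the ciliary protein fibrocystin, held 6179, 5720.0 and 3754 in sub and 8617, 7651 and 9630.0 in low (log2 difference 0.75 ± 0.78, limma adjusted p = 0.771). Pkd1, the polycystin gene, held 777, 1986 and 2538 and 649, 1313 and 87.9, a negative difference of -1.90 ± 1.0 (adjusted p = 0.54). The exception of the transport list was the water channel gene Aqp1, which is also an endothelial gene: it was 10004, 10017 and 5823 in neg, 2327, 3746 and 2441 in sub and 124, 0 and 0.822 in low (adjusted p = 0.0533), and edgeR called it lower. Pkhd1 did not overlap between the gates, whereas Pkd1 did.

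In the ERBB list 7 of 8 tested genes were higher, with a median log2 difference of 1.90. Erbb4 was the only call in limma, edgeR and DESeq2. Limma and edgeR called 0.13% and 0.304% of all genes higher, and DESeq2 7.64% of those it gave a value. Erbb2 was 595, 90.4 and 492 in sub and 615, 466 and 1709.5 in low (limma adjusted p = 0.833), and Erbb3, the kinase-impaired partner, was 385, 589.6 and 469.8 and 2937, 1518 and 2331 (adjusted p = 0.689). The ligand gene Hbegf was 3759, 3497 and 2699 in sub and 8033, 13183 and 9398 in low (log2 difference 1.60 ± 0.40, adjusted p = 0.0674). The ligand gene Nrg1, whose product binds Erbb3 and Erbb4, was 47.9, 931 and 1912 in sub and 4.45, 478 and 0 in low (-5.01 ± 2.85, adjusted p = 0.589). Hbegf, like Erbb3, had no overlap between the gates, while Erbb2 and Nrg1 did.

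Markers of other cells were also examined. Of 11 hepatocyte genes tested 7 were higher and 4 lower in low, with a median of 0.94 and no limma call. EdgeR called Alb higher (0.304% of all genes) and DESeq2 called Apoa1 higher (7.64%). The DESeq2 log2 difference of Apoa1 was 22.3, a size not read as a fold, against -0.054 in limma under quantile normalisation. EdgeR did not call Apoa1 (adjusted p = 0.715). Albumin (Alb) was 4133, 1302 and 5182 in sub and 8181, 10201 and 15355 in low (limma adjusted p = 0.694), the plasma protein gene Ahsg 938, 1286 and 1643 and 3344, 2583 and 3883, and Hnf4a, the hepatocyte master regulator, 264, 1594 and 0 and 1029, 937 and 1947 (adjusted p = 0.613). The hepatocyte list summed to 6385 to 11244 in sub and 16828 to 25362 in low beside the higher duct sums, Apoa2 and Apoc3 were at 0 in all 12 libraries, and the part of hepatocyte RNA in the rises was not tested. Of the genes of hepatocyte zones, Cyp2e1 was 0, 179 and 318 in sub and 12.6, 0 and 0 in low (adjusted p = 0.68), Ass1 0, 1005 and 0 and 72.0, 0.850 and 83.8 (adjusted p = 0.996), and Cyp1a2, Cyp3a11 and Cyp2c29 were at 0 throughout. The glutamine synthetase gene Glul was higher in sub than in low without overlap, at 3263, 4514 and 3868 in sub and 1835, 1312 and 1571 in low (adjusted p = 0.305), and the zonal list summed to 3263 to 5825 in sub and 1394 to 2173 in low. That sum was mostly Glul, and of the 5 zonal genes tested 3 were higher and 2 lower in low, with a median of 1.17 and no call in limma, edgeR or DESeq2. The macrophage list summed to 490.0 to 587 in sub and 743 to 1219.7 in low, although 3 of its 5 tested members were lower and 2 higher, with a median of -2.24 (-3.76 with bounds). No member was called in any of the 3 tests, with Clec4f, a Kupffer cell lectin, above 0 in sub 1 alone, Adgre1 at 0 in both gates and C1qa at 0 in all libraries. Lymphocyte genes such as Cd3e were at 0 in sub, and in low their sum was at most 105, with Ptprc above 0 in low 1 alone and Cd8a in low 3 alone. The mesothelial list was 497 to 2939 in sub and 537 to 596 in low; its members Msln and Upk3b were each above 0 in 1 sub library, and DESeq2, run without sub 3, the sub library that held Msln, called that gene higher in low (2.76e-06). Of its 5 tested members 3 were lower and 1 higher, with a median of -1.33.

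Genes that respond to tissue dissociation were high in both gates. Fosb, an AP-1 transcription factor, rose from 37995, 27271 and 35252 in sub to 49958, 54367 and 60788 in low (log2 difference 0.73 ± 0.13, limma adjusted p = 0.0114), the only limma call among 12 immediate early genes (0.13% of all genes rose), of which 8 were higher and 4 lower with a median of 0.31. It was lost without any 1 library other than neg 2 (adjusted p 0.0575 to 0.171) and was not made in DESeq2 (0.537) or under quantile normalisation (0.0973), while edgeR called Fosb (0.00301) and Jun (0.0476) higher (0.304% of all genes). Fos (28021, 21106 and 27519.9 in sub, 39323, 32533 and 39009 in low, adjusted p = 0.192) and Jun (34749, 30245 and 42327 and 48448, 49946 and 48392, adjusted p = 0.0521) did not pass in limma. The list summed to 155614 to 194540.0 in sub and 231608 to 253291 in low, 5 of its 12 members were higher without overlap (5.75% of all genes), and their part in the other changes was not tested. Of the heat shock genes, the near-identical Hspa1a and Hspa1b were 29997, 20987 and 14678 and 51599, 37338 and 40508 in sub and 21571, 18678 and 22858 and 40705, 32979.9 and 37832 in low (adjusted p = 1 and 0.733). No member of the heat shock list was called in limma or DESeq2, and edgeR called Hsp90aa1 higher (0.304% of all genes). Of its 8 members 5 were higher and 3 lower, with a median of 0.06. Proliferation genes were seen in some libraries only: Mki67 was 137, 779 and 0 in sub and 0 in low (adjusted p = 0.526), and Top2a was above 0 in 1 library of each gate, with no call among 7 tested in limma or edgeR. DESeq2 called Mki67 (0.000283) and Ccnb1 (5.18e-09) lower (5.85% of genes with a value). The DESeq2 log2 difference of Ccnb1 was -27.8, a size not read as a fold, and its edgeR adjusted p was 0.715. In limma, however, 5 of the 7 were higher in low and 2 lower, with a median of 2.34 (3.15 with bounds). The list summed to 0.997 to 1191 in sub and 605 to 962 in low.

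Against the gates on either side, the falls were divided by their level in neg. In 61 of the 99 the neg mean was above the sub mean and in 38 below it. Of these genes 93 also passed as lower in low than in neg, where 4.69% of all genes passed in either direction. In contrast, 3 passed as higher in sub than in neg (Col28a1, Gucy1b1 and Utrn) and 2 as lower (Maf and Syne1). Col28a1, a minor collagen was at 0 in neg, low and high and at 531, 272 and 219 in sub. The high mean lay on the low side of the sub mean in 98 of the 99, the exception being Osbpl1a, and lay closer to low than to sub in 87 of the 99 on the log2 scale, and 29 genes were at the floor in both low and high. For the rises, 19 of 21 had a high mean above that of sub and closer to low, Mybpc2 and Ppil6 being the exceptions. Of the rises 8 also passed as higher in sub than in neg and 3 as lower (Got2, Lnx2 and Rpl19-ps11). In that contrast 1.19% of all genes passed in either direction. These contrasts share libraries with low against sub, so their values are given side by side and not as separate evidence. No gene passed between high and low in limma, with 684 at an unadjusted p under 0.05.

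Of the 49 genes that passed in limma and were named by the rule for list members and largest changes, edgeR did not call 8 (Alcam, Col4a2, Got2, Gucy1b1, Lnx2, Mybpc2, Phf10 and Usp1). DESeq2 did not call 9 (Actg1, Alcam, Bmpr2, Col3a1, Col4a1, Col4a2, Fosb, Gm43305 and Gm48275) and gave no adjusted p for Col1a1, Mrc1 and Npr3. Quantile normalisation lost 14 (Actg1, Col3a1, Erg, Fbln1, Flt1, Fosb, Gm43305, Gm48275, Got2, Lmod1, Mrc1, Npr3, Robo4 and Stab1). Outside that rule, Col28a1 was called by neither edgeR (0.703) nor DESeq2 (0.0598) and did not pass under quantile normalisation (0.057). Utrn was called by neither edgeR (0.0523) nor DESeq2 (0.213), Ppil6 not by edgeR (0.715) or under quantile normalisation (0.0537), and Osbpl1a not under quantile normalisation (0.0537). Maf and Syne1 were called in all of these. Of the 49 genes 15 passed in all 12 fits that left out 1 library and 33 were lost when sub 2 was left out, a fit in which 42 genes passed in all. A fit of the low and sub libraries alone called no gene, with a lowest adjusted p of 0.111 and 1206 genes at an unadjusted p under 0.05, so the calls rest on the spread estimated over all 4 gates. Of the named genes that passed, Plvap, Cdh5, Des, Stab1, Col5a1, Fbn1, Sparcl1, Npr3, Nrp2, Lmod1 and Reln also overlap another annotated gene on the opposite strand, and their reads cannot be told apart from its reads if strand was not used.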

How the data were processed

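Bulk total RNA was sequenced from 12 sorted populations. Per the labels' protocols, cells were sorted into lysis buffer on a Sony SH800 and libraries were made with a SMARTer Pico kit for stranded total RNA. The authors deposited 1 table of normalised counts, used here as signal values; the submitters' processing notes name Salmon, DESeq2 1.26.0 and mm10, without the role of each. Each deposited count column was a whole number of reads divided by 1 factor (100% of values, tolerance 0.01). For the count tests the values of 10 libraries were turned back into reads, which may be rounded estimates that divide reads among near-identical transcripts. Sub 3 and high 2 were left out of those tests. Their values met the whole-number tolerance too, but 1 read is worth almost 1 in them, and a separate check of units did not accept them.

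Genes with a mean of at least 10 were tested (16128, holding 99.9% of summed values; 33571 symbols were 0 throughout). The test was limma 3.58.1 in R 4.3.3 with an intensity trend, on log2(value + 1), over all 12 libraries with gate as the only term. The contrast was low minus sub, with Benjamini-Hochberg adjustment over all tested genes at 0.05. Fold differences are on this log2(value + 1) scale, which understates those of low genes, except the bounds, which use 3 reads per library. EdgeR 4.0.16 and DESeq2 1.42.0 on 10 libraries, other pseudocounts, filters, scalings, a replicate block, other variance settings and leaving out each library were the alternatives, with limma on 10 libraries added after the data were seen. The procedure was also run on simulated counts, which lacked the all-or-none values of these libraries, so that run does not show how it performs on such values. Positions are from GENCODE M21 on GRCm38 (52258 of 54227 symbols matched), and near copies were found with blastn 2.17.0. Gene and list choices were made with earlier results of these data known. The text names the 12 largest rises and falls with a mean of at least 100 and no overlap, and every called member and the first 2 members of each list, apart from a result not reported here. Outside that rule, these genes were picked after their values were seen: Ahsg, Aqp1, Cldn3, Cldn7, Col18a1, Col28a1, Egfl7, Hbegf, Glul, Igf1r, Kdr, Krt18, Nrg1, Onecut1 and Spp1, those named only as called by a count test or as being at 0 or at the floor, those named as exceptions, and those of the closing observations.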

Additional observations from a re-analysis of the deposited data

How the results depend on the processing

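The number of genes called between low and sub was 120 and stayed within 1.5 times of that under both other pseudocounts, both other filters, equal totals, quantile normalisation and limma on 10 libraries. It was 195 without a variance trend, 271 in edgeR, 1501 in DESeq2 and 0 with the low and sub libraries alone. Genes higher in low numbered 21, against 12 under quantile normalisation, 52 without a variance trend, 49 in edgeR, 850 in DESeq2, 37 in limma on 10 libraries and 0 with those libraries alone. Genes lower in low numbered 99, against 222 in edgeR, 651 in DESeq2 and 0 with those libraries alone. Of the 120 calls, 100 were shared with edgeR and 88 with DESeq2. Higher genes made up 17.5% of calls, 56.6% in DESeq2 and 33.9% in limma on 10 libraries. Leaving out 1 library gave 42 to 170 calls, 11 to 68 higher and 31 to 134 lower. The lowest values in all of these came without sub 2 (27 calls shared). The count of higher genes also moved by over 1.5 times without neg 1 (36), neg 2 (39), neg 3 (35), sub 1 (68), sub 3 (47), low 2 (43) and low 3 (44), with 38.4% of calls higher without low 2, 35.8% without low 3, 40.0% without sub 1 and 39.2% without sub 3. The causes were not tested.

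With the replicate number as a block 83 genes were called, 17 higher and 66 lower, 77 of them shared, and 17 of the 49 calls of the naming rule had an adjusted p of 0.051 to 0.0675, Alcam, Bmpr2, Col3a1, Erbb4, Erg, Fbln1, Flt1, Gata4, Got2, Gucy1b1, Lmod1, Mybpc2, Npr3, Robo4, Sparcl1, Stab1 and Usp1. The column names repeat 3 tags over the gates, which the replicate numbers follow, but the labels do not say what a tag marks. Same-numbered low and sub libraries correlated at 0.016, 0.007 and -0.013 in their deviations from the gate means, and other pairs between -0.022 and 0.014.

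No call changed direction except that of Rpph1 under quantile normalisation (-0.07). The signs that reversed otherwise belonged to uncalled genes. Angpt2, Rspo3, Thy1 and Upk3b were 0 in edgeR, in DESeq2, without sub 3 and in limma on 10 libraries. DESeq2 gave Upk3b no adjusted p. Leaving out 1 library gave -4.5 to 0 for Angpt2, -3.75 to 0 for Rspo3, -4.33 to 0 for Thy1 and -4.71 to 0 for Upk3b. The log2 difference of Ass1 was -3.15 in edgeR, -3.27 in DESeq2, -0.49 without sub 1 or sub 3 and in limma on 10, and at most 4.49 without another library. Bmp2 was -0.29 in edgeR, -0.28 in DESeq2 and -0.96 (without sub 2) to 2.27 on leaving out 1 library. Cftr was -0.22 in edgeR, -0.23 in DESeq2, -0.32 in limma on 10 and -0.32 (without sub 3) to 4.29. Msln was -0.08 without sub 1 or sub 2 and ran from -1.98 (without low 1) to 2.89. Top2a was -0.38 without sub 2 or sub 3 and in limma on 10, and ran from -1.58 (without low 3) to 1.99. Tgfb2 ran from -0.48 (without sub 2) to 1.49, Thbs1 from -0.01 (without low 2) to 0.53, Clec4f from -3.36 to 0 (without sub 1) and Ptprc from 0 (without low 1) to 2.8. Of the other values for named genes and list medians, 2528 kept direction and side of the threshold, 382 lost and 31 gained a call and 72 moved. Among genes with a mean under 1000 the median standard error was 2.45 and 37 of 14075 were called. The part of depth and of the all-or-none values in this was not tested.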

Other observations

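Of the 120 called genes 89 belonged to no list, and those given here were chosen after their values were seen. The von Willebrand factor gene Vwf was 4057, 10752 and 4387 in sub and 2.97, 158 and 0.822 in low (limma log2 difference -9.10 ± 1.52, adjusted p = 0.00665), and the clotting factor gene F8 was 2495, 2837 and 4669 and 505, 0 and 0 (-8.65 ± 1.80, adjusted p = 0.032). Sele, which encodes E-selectin, was 2654, 827 and 400.0 in sub and at 0 in low (-9.90 ± 2.21, adjusted p = 0.0433). The endothelial phosphatase gene Ptprb remained measurable, at 13539, 16196 and 9314 in sub and 688, 971 and 252 in low (-4.52 ± 0.62, adjusted p = 0.00159), from 55222 ± 8597 (SD, n = 3) in neg. Heg1, a receptor of endothelial junctions, was 6389, 15866 and 6536 in sub and 304, 185 and 336 in low (-5.03 ± 0.57, adjusted p = 0.000215). Every sub library was above every low library for each of these genes, as for every gene called lower in limma. The Heg1 call was kept whichever library was left out, those of Sele and Ptprb were lost without sub 2 (adjusted p 0.0617 and 0.0611), that of Vwf without sub 2, sub 3 or low 1 (adjusted p 0.0508 to 0.0778) and that of F8 without any 1 library other than low 1 (adjusted p 0.102 to 0.219).

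Some falls were smaller and lay in abundant genes. The receptor subunit gene Il6st, shared by the interleukin 6 cytokine family, was 8419.8, 14659.5 and 11570.5 in sub and 3489.6, 2896 and 3569 in low (limma log2 difference -1.77 ± 0.29, adjusted p = 0.00593), and its partner Lifr was 6337, 10559.5 and 6496 and 903, 1577 and 1819 (-2.46 ± 0.40, adjusted p = 0.00593). The cytoskeletal linker genes Macf1 (-1.25 ± 0.19, adjusted p = 0.00299), Sptbn1 (-1.18 ± 0.19, adjusted p = 0.00593), Syne1 (-1.96 ± 0.29, adjusted p = 0.00307) and Utrn (-1.30 ± 0.24, adjusted p = 0.0138) fell as well, and Msn, which links actin to the membrane, fell by more (-3.80 ± 0.72, adjusted p = 0.0178). Utrn, the dystrophin relative, was highest in sub, at 15245, 24784 and 20079, against 8738 ± 534 (SD, n = 3) in neg and 5479, 8107 and 11346 in low. The scavenger and signalling receptor gene Lrp1 was 14199, 14008 and 23175 in sub and 2508, 1268 and 2748 in low (-3.01 ± 0.32, adjusted p = 0.000145), and Timp3, a matrix protease inhibitor that overlaps Syn3 on the opposite strand, was 13725, 24990.0 and 21594 and 1708, 2345 and 5582 (-2.79 ± 0.37, adjusted p = 0.00104). The intermediate filament gene Vim was 9494, 15565 and 14666 in sub and 734, 310.1 and 353 in low (-4.90 ± 0.99, adjusted p = 0.0282). The Syne1 and Lrp1 calls were kept whichever library was left out, and those of Lifr and Timp3 were lost without sub 2 (adjusted p 0.0664 and 0.0557). That of Il6st was lost without sub 2 or sub 3 (adjusted p 0.0608 to 0.0729), Macf1 without sub 2, low 2 or low 3 (adjusted p 0.0538 to 0.0778), Sptbn1 without any 1 library other than sub 1, high 2 or high 3 (adjusted p 0.0516 to 0.136), Utrn without any 1 library other than sub 1, low 3 or high 3 (adjusted p 0.0568 to 0.142), Msn without sub 1, sub 2, sub 3, low 2 or low 3 (adjusted p 0.0523 to 0.102) and Vim without any 1 library other than high 1 or high 3 (adjusted p 0.094 to 0.185).

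The called genes C4b, C1s1, Irf1, Ifit1, Ifi203 and Ifi207 were picked after their values were seen, and how many genes of the same kinds did not pass was not counted. C4b, a complement component with the near copy C4a, was 4143, 5792 and 10043 in sub and 413, 140.2 and 694 in low (limma log2 difference -4.18 ± 0.69, adjusted p = 0.00593). The transcription factor gene Irf1 was 6116, 10690.0 and 8003 and 1156, 1871 and 3131 (-2.09 ± 0.41, adjusted p = 0.0243), with 5054 ± 2339 (SD, n = 3) in high, between the 2 gates. Ifit1 was 1612, 2402 and 3505 in sub and 75.0, 165 and 522 in low (-3.67 ± 0.84, adjusted p = 0.0472). C1s1, another complement gene, held 528, 1725 and 2824 in sub and 0 in low (-10.42 ± 2.17, adjusted p = 0.032). Ifi203 and Ifi207, interferon-inducible genes of one family, had differences of -9.26 ± 2.01 and -10.11 ± 2.31 (adjusted p = 0.039 and 0.0475). The C1s1 call was lost without sub 2 (adjusted p 0.0557), that of Ifi203 without any 1 library other than low 3, high 1, high 2 or high 3 (adjusted p 0.0545 to 0.111) and that of Ifi207 without any 1 library other than neg 3, high 1, high 2 or high 3 (adjusted p 0.0503 to 0.126). The C4b call was lost without sub 2 (adjusted p 0.0557), that of Irf1 without any 1 library other than low 3, high 1 or high 3 (adjusted p 0.0679 to 0.165) and that of Ifit1 without sub 2, sub 3, low 1, low 2, high 1 or high 2 (adjusted p 0.0505 to 0.11).

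Among the smaller rises, Akap13, an anchoring protein for protein kinase A, was 9579.8, 10317 and 8798 in sub and 21932, 22894 and 21634 in low (limma log2 difference 1.21 ± 0.20, adjusted p = 0.00593). The choline kinase gene Chka was 18126, 17166 and 17084 and 30885, 33668 and 34841 (0.92 ± 0.14, adjusted p = 0.00299), and high was above both, at 46097 ± 4710.4 (SD, n = 3). Actb, the other cytoplasmic actin gene, was 16113, 11816 and 14642 and 22621, 27494 and 28758 (0.89 ± 0.20, adjusted p = 0.0476). The smallest called difference was that of Rpph1, the RNA of ribonuclease P, at 109717, 109776 and 97118 in sub and 139777, 127356 and 128431 in low (0.32 ± 0.06, adjusted p = 0.0251), and under quantile normalisation it was -0.07. Ppil6 was at 0 in all 9 libraries outside low and at 227, 465 and 486 in low (8.54 ± 1.93, adjusted p = 0.0464), like Mybpc2. The Akap13 call was kept whichever library was left out, those of Chka and Ppil6 were lost without sub 2 (adjusted p 0.0546 and 0.0557), that of Actb without any 1 library other than neg 2 (adjusted p 0.137 to 0.319) and that of Rpph1 without any 1 of the 12 libraries (adjusted p 0.0512 to 0.304). Of the genes named in this and the preceding paragraphs, edgeR did not call Actb, Ifit1, Ppil6 or Utrn, and DESeq2 did not call Actb, Akap13, Chka, Irf1, Macf1, Rpph1, Sptbn1 or Utrn and gave F8 no adjusted p. Under quantile normalisation F8, Sele, Ifi203, Ifi207, Ifit1, Actb, Ppil6 and Rpph1 did not pass. For Gm6136 and Rpl6, near copies of one ribosomal protein gene, Gm6136 averaged 1438 in sub and 0 in low, Rpl6 averaged 1471 and 4051, and their sum was 2909 ± 815 and 4051 ± 581 (SD, n = 3).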
